A study of Mus musculus with 6 samples.

Results

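The transcripts of 9 genes of the NF-κB system were followed across the cells of mouse lymph nodes with and without a draining melanoma. The genes were Nfkb1, Nfkb2, Rel, Relb, Nfkbia, Nfkbiz, Tnfaip3, Birc3 and Traf1, taken by symbol. Each symbol was found on a single row of both gene lists, which held 32285 genes in the myeloid-enriched and 54752 genes in the CD45-depleted libraries. NF-κB factors are dimers of Rel-family proteins that wait in the cytoplasm bound to inhibitors and enter the nucleus when a kinase complex marks the inhibitor for destruction. The canonical pathway, driven by Toll-like, TNF and antigen receptors, acts mainly through the products of Nfkb1, Rel and Rela, whereas the non-canonical pathway, driven by receptors such as CD40 and the lymphotoxin β receptor, processes the Nfkb2 product and acts through its dimer with RELB. Several target genes of the pathway encode its own brakes, among them the inhibitor IκBα (Nfkbia) and the ubiquitin-editing protein A20 (Tnfaip3). In dendritic cells (DCs) the pathway is known for its part in maturation, and in lymph node stroma for the formation and upkeep of the organ.

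Single-cell 3′ libraries were prepared from collagenase-digested inguinal and axillary nodes of C57Bl/6 mice that were tumour-free (naive), bore a YUMM1.7 melanoma or bore a YUMMER1.7 melanoma, a more immunogenic derivative of YUMM1.7. Each library pooled nodes from several mice, and neither the ages of the animals nor the time after tumour implantation are given in the sources used here. There were 2 cell fractions, enriched with CD11b and CD11c beads or labelled as de-enriched for CD45, and 1 library per arm in each, so no difference between arms has a replicate check and no test was possible. The labels of the CD45-depleted fraction and its protocol, which speaks of a positive enrichment of stroma, do not match, and lymphocytes, germinal-centre and plasma cells included, made up most of the kept cells in all of its libraries. Lymphocyte classes were also recovered from the enriched fraction.

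After filtering, 6466 to 9951 cells per enriched library and 6541 to 12356 cells per depleted library remained, with median depths of 6708 to 10149 and 4150 to 4900 unique transcript counts (UMIs) per cell. Any pair of libraries shared 6 to 49 cell barcodes, at most 0.431% of the smaller one. Cells were clustered without the 9 genes, and clusters were named from fixed markers. The 13 classes so named among enriched and 12 among depleted cells are therefore marker-defined (cDC1-like, migratory DC-like and so on), and the suffix is left out below. Levels (CPM) are the UMIs of a gene summed over a class in 1 library, scaled to a total of 1000000 UMIs, and are given only for sums over at least 20 cells. Where 3 values stand together they are in the order naive, YUMM1.7, YUMMER1.7, and where 2 do, in the order YUMM1.7, YUMMER1.7. Log2 ratios are given with exact 95% intervals that cover counting error only. A gene was counted as past the fold where its CPM differed by at least 1.5-fold and the compared libraries together held at least 50 of its UMIs. Both tumour comparisons use the same naive library.

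In the GENCODE annotation of GRCm38, the build (mm10) that the submitters' processing notes name, the Rel-family members are Nfkb1 (chr3:135584655-135691547, - strand), Nfkb2 (chr19:46304320-46312385, + strand), Rel (chr11:23736847-23770970, - strand) and Relb (chr7:19606217-19629438, - strand). Grouped here as inhibitors are Nfkbia (chr12:55489410-55492647, - strand), Nfkbiz (chr16:55811375-55838899, - strand) and Tnfaip3 (chr10:19000910-19015657, - strand). The Nfkbiz product is also a nuclear cofactor, so for this gene the word inhibitor is a group label only. The ubiquitin ligase and adaptor genes are Birc3 (chr9:7848699-7873186, - strand) and Traf1 (chr2:34941750-34961772, - strand). Promoter windows of 300 bases, with 250 before and 50 after the annotated start, were found in the RefSeq table (GRCm38.p6) for 6 of the 9 genes. They were searched on both strands for the κB decamer consensus. A match lay in 4 of these 6 genes (66.67%), against 9.55% of all 27025 genes in the table. The 4 windows below are shown because they belong to the members that carry the decamer in front of their own start, with the matched letters in capitals, each read 5′ to 3′ on the strand of its gene.
Nfkbia (chr12:55492598-55492897, - strand): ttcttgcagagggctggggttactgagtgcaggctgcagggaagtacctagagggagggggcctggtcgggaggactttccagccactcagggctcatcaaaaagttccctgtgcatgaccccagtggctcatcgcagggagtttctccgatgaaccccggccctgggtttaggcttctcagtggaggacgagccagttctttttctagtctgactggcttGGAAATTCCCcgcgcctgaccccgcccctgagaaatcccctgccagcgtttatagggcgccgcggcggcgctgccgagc
Nfkb2 (chr19:46304487-46304786, + strand): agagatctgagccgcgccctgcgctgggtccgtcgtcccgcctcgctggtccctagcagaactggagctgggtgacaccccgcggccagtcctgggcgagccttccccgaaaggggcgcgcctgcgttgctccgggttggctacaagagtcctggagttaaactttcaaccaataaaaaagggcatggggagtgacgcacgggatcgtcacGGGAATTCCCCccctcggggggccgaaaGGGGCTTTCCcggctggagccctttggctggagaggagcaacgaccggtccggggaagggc
Rel (chr11:23770920-23771219, - strand): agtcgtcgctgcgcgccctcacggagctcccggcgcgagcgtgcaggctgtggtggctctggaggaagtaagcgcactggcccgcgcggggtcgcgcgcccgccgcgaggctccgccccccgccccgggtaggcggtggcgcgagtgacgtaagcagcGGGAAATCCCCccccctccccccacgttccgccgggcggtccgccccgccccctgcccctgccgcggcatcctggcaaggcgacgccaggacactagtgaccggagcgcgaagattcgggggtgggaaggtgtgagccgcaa
Tnfaip3 (chr10:19015361-19015660, - strand): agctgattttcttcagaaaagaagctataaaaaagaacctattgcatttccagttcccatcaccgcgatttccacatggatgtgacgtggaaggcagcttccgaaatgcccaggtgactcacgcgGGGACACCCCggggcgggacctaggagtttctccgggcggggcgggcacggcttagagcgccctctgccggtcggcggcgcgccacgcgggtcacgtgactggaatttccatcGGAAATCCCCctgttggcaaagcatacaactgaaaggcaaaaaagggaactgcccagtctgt
Nfkbia carries GGAAATTCCC starting 29 bases before the start. The Nfkb2 window holds the overlapping decamers GGGAATTCCC and GGAATTCCCC, 39 and 38 bases before the start, and GGGGCTTTCC at 11 bases before it. The other 2 Nfkb2 windows, at later annotated starts, overlap each other and also carry decamers. These are GGAATGTCCC, 236 bases before the start of the earlier of them, and GGGACTTTCC, 10 bases after that start and 225 bases before the last one. In Rel the overlapping decamers GGGAAATCCC and GGAAATCCCC lie 92 and 91 bases before the start. Tnfaip3 has GGGACACCCC at 125 and GGAAATCCCC at 12 bases before the start of this window, and none in its other window. No decamer was found in the single windows of Birc3 and Traf1. These matches are descriptions of sequence, not of bound sites.

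Among the Rel-family factors, Relb and Nfkb2 marked out migratory DCs, the CCR7-positive cells that reach the node from the tissue. In migratory DCs of the enriched fraction Relb stood at 932, 863 and 875 CPM. The next named class was cDC2, conventional DCs of the second type, with Relb at 172, 189.7 and 189 CPM. In every library the value in migratory DCs thus lay above that of all other classes, and the ranges did not touch. Germinal-centre B cells, cDC1 (the cross-presenting DC type) and T cells were at the bottom for Relb, at 65.3, 39.3 and 42.5, at 58.4, 47.8 and 46.6 and at 55.8, 66 and 40.4 CPM, with ranges that overlapped. Relb in depleted migratory DCs was 839, 909 and 869 CPM, followed by lymphatic endothelium with 221, 164 and 144 CPM.

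Nfkb2, which encodes the precursor of p52, had the same leading class among the named ones, over a smaller range. Nfkb2 was 116, 125 and 126 CPM in enriched and 83.8, 120.0 and 139 CPM in depleted migratory DCs. The enriched range overlapped that of unnamed cluster 7, a shallow cluster with 120.4, 94.2 and 94.9 CPM. Among the named classes of the enriched fraction neutrophils came next, at 94.5, 85.2 and 62 CPM, a range that overlapped those of monocytes and innate-like lymphocytes, and T cells were lowest, at 23, 16.5 and 15.3 CPM. Depleted stroma followed the DCs, with lymphatic endothelium at 60.6, 53 and 57.4 CPM. Fibroblastic cells and blood endothelium, for which the naive library held too few cells, had Nfkb2 at 46.2 and 65.1 and 46.9 and 52.6 CPM in the tumour libraries.

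Rel, which encodes c-Rel, had 3 neighbouring classes at its top that did not separate. Its level was 1083, 1074 and 1067 CPM in migratory DCs, 1247, 964 and 806 CPM in cDC2 and 1099, 833 and 872 CPM in B cells of the enriched fraction. The 3 ranges overlapped from one class to the next. Depleted B cells held 1031, 714 and 606 CPM, and stroma was near the bottom, with 65.7 and 40.9 CPM in fibroblastic cells. cDC1 had less Rel than cDC2 in every library, at 506, 385 and 372 CPM.

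Nfkb1, which encodes the p105 precursor of p50, was highest in innate-like lymphocytes, a class led by Cxcr6, Il23r and Zbtb16. Its level there was 2745, 1837 and 1839 CPM, above mast cells or basophils with 1709 and 1158 CPM in the tumour libraries. In migratory DCs Nfkb1 was 398, 498 and 448 CPM, below cDC2 with 829, 676 and 612 CPM in every library. In the depleted fraction mast cells or basophils led by median, with a range of 368 to 925 CPM. It overlapped that of unnamed cluster 14, at 422 to 562 CPM. Plasma cells were lowest, with 60.7, 43.3 and 44.2 CPM of Nfkb1.

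**Figure D1:**
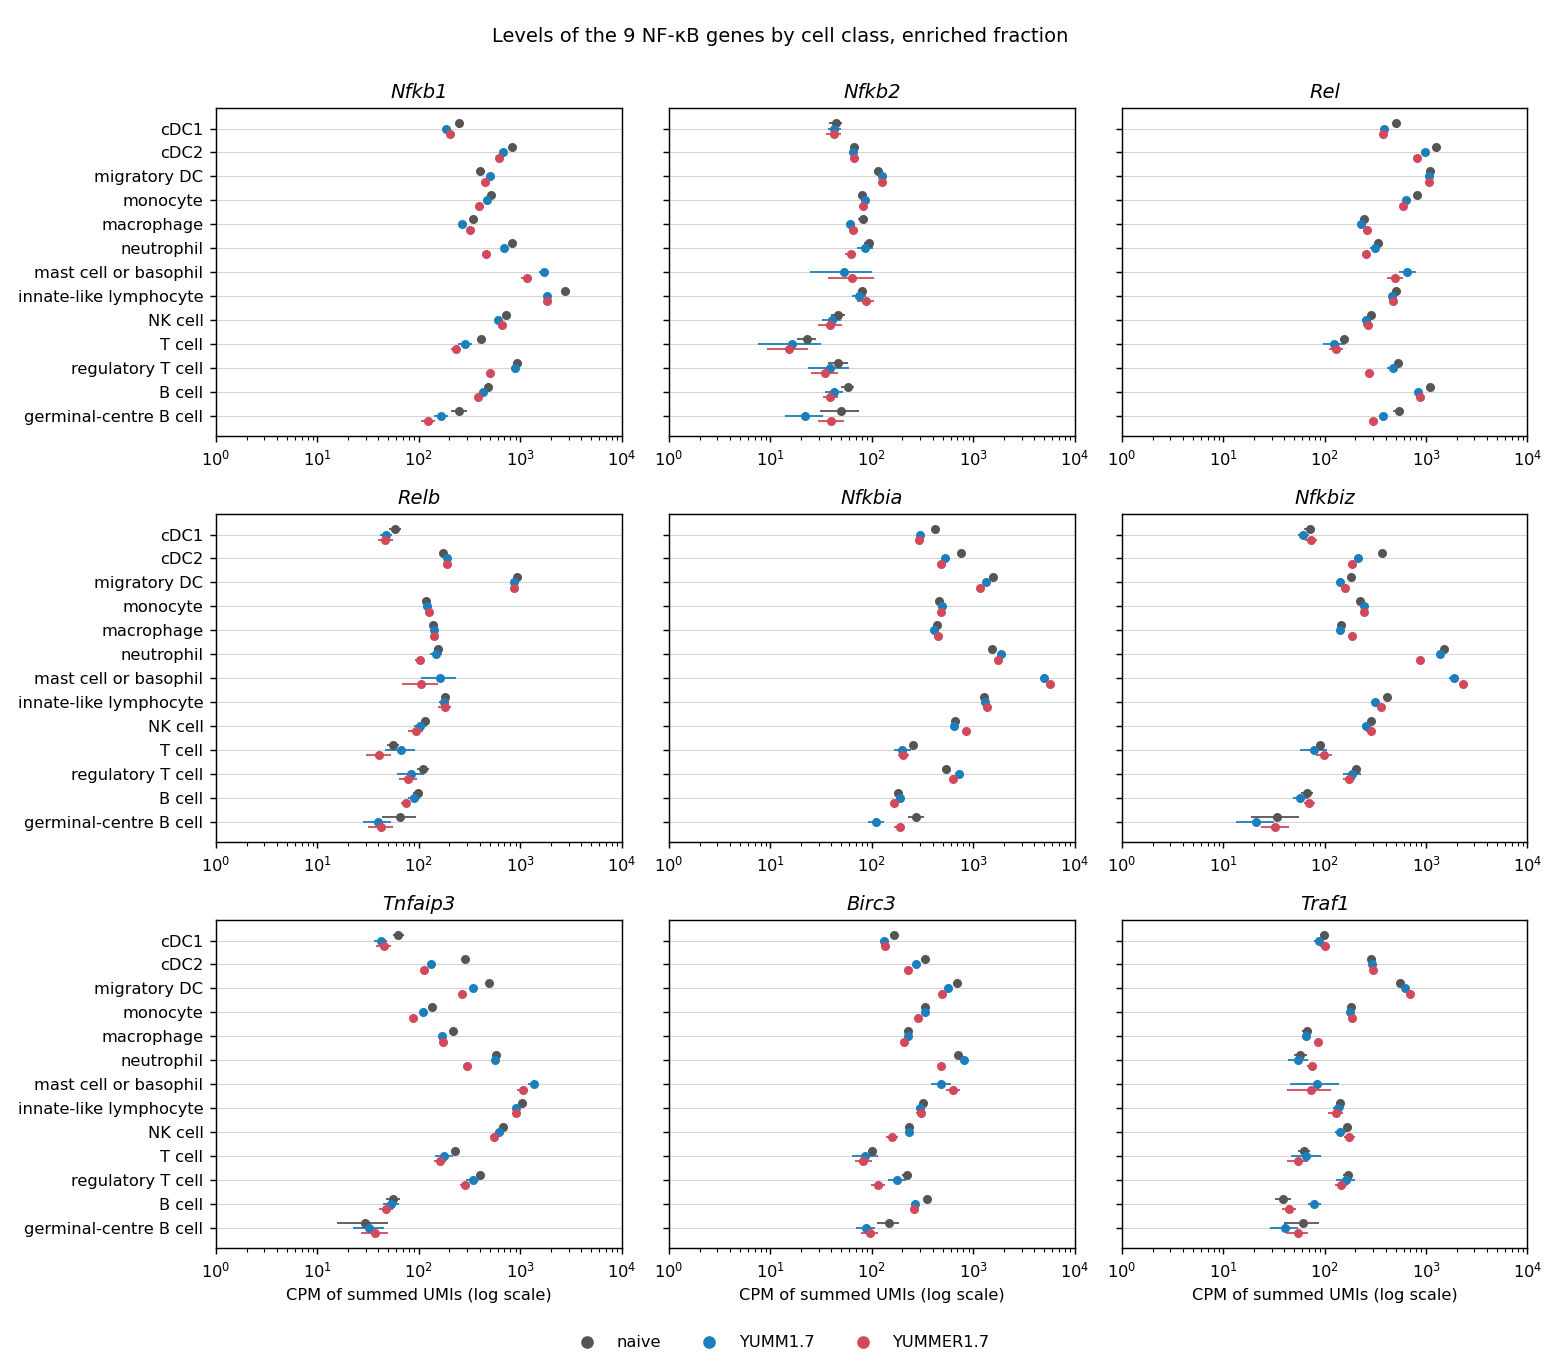
CPM of each of the 9 genes (x axis, log scale) in the 13 named classes of the enriched fraction, with 1 point per library and bars for the exact Poisson 95% interval. Relb and Traf1 stand out in migratory DCs and Nfkbia, Nfkbiz and Tnfaip3 in mast cells or basophils, for which the naive library had under 20 cells and no point is drawn.

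Among the named classes, the balance between the factors followed the same division. Nfkb2 and Relb together made up 41.4%, 38.6% and 39.8% of the UMIs of Nfkb1, Nfkb2, Rel and Relb in enriched migratory DCs. The share was 39.8%, 46.3% and 49.2% in those of the depleted fraction. Lymphatic endothelium held 34.3%, 40.1% and 36.6%, and fibroblastic cells and blood endothelium 32% and 34.9% and 36.4% and 36.2% in the tumour libraries. Macrophages came next with 27%, 28.9% and 26.3%. Of the unnamed clusters of the enriched fraction, cluster 7 was higher than migratory DCs, at 67.9%, 73.4% and 72.9%. Cluster 25 held 40.1% in YUMMER1.7, over 38 cells. In cDC2 the share was 10.3%, 13.5% and 15.2%, higher in both tumour libraries than in the naive one, and in cDC1 it was 11.9%, 13.7% and 13.3%. B cells of the depleted fraction held 7.57%, 8.97% and 10.1%. These UMIs are 3′ tags, whether the shares depend on gene length was not tested, and Rela is not part of the denominator.

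**Figure D2:**
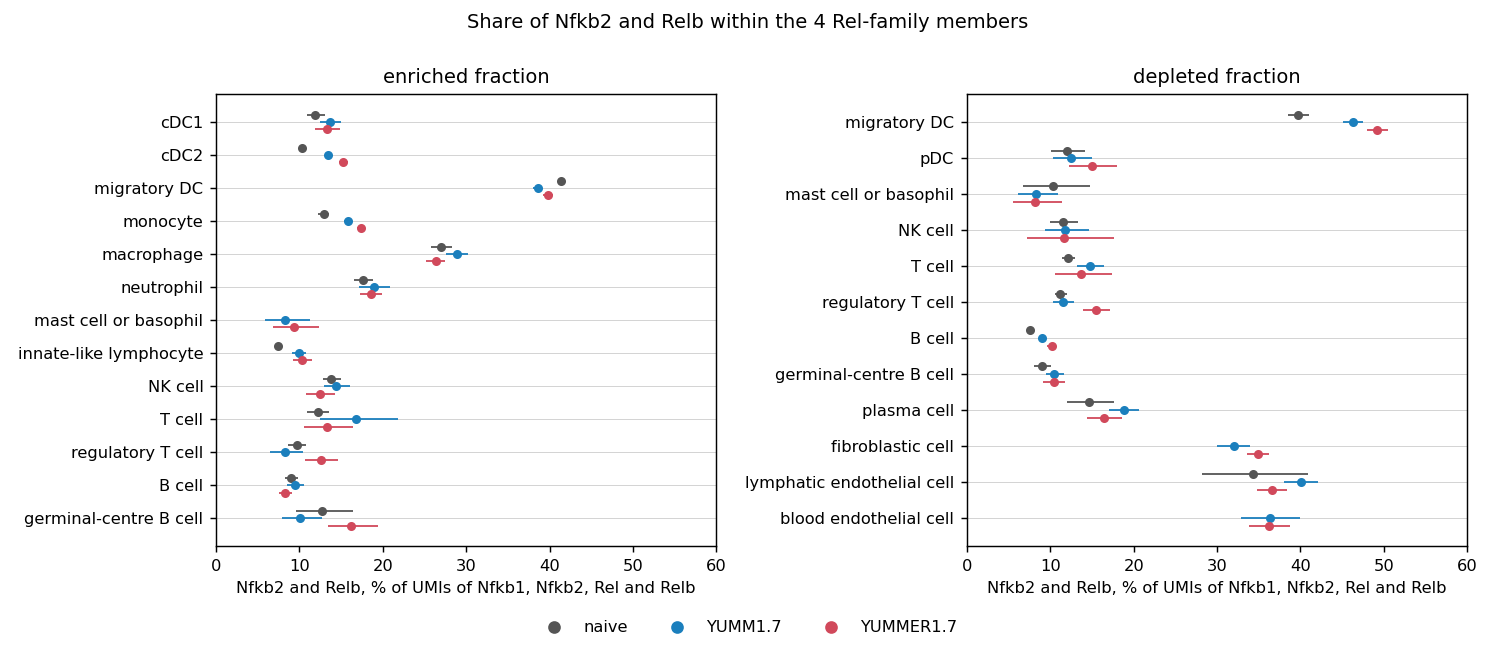
Share of Nfkb2 and Relb (x axis, %) among the UMIs of the 4 Rel-family members, by named class and library, with exact binomial 95% intervals as bars. Migratory DCs lie between 38.6% and 49.2% in both fractions, stroma between 32% and 40.1%, and most leukocyte classes below 20%.

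The inhibitor transcripts were led by other classes than the non-canonical factors. Nfkbia, the transcript of IκBα, reached 5049.8 and 5682 CPM in mast cells or basophils of the enriched tumour libraries and 4049, 5859 and 2849.9 CPM in the 3 depleted libraries. Neutrophils, migratory DCs and innate-like lymphocytes followed, with Nfkbia at 1533, 1884 and 1753, at 1574, 1326 and 1164 and at 1293, 1300.4 and 1382 CPM. B cells of the enriched fraction were lowest, with 183, 189 and 167 CPM, and did not separate from germinal-centre B cells. Endothelium held much Nfkbia for a non-myeloid class, with 827, 1096 and 1307 CPM in lymphatic cells.

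Nfkbiz, which encodes the nuclear cofactor IκBζ, was 1494, 1379 and 874 CPM in neutrophils and 1875 and 2324 CPM in mast cells or basophils of the tumour libraries. All other named enriched classes stayed below these, with innate-like lymphocytes next at 409, 314 and 358 CPM. Migratory DCs, high in Nfkbia, were not high in Nfkbiz, which stood at 183, 141 and 159 CPM there. Tnfaip3 was highest in mast cells or basophils and innate-like lymphocytes, the latter with 1042, 905 and 911 CPM. NK cells had 674, 616 and 555 CPM of Tnfaip3. In the depleted fraction the B lineage had the least, with 36.7, 28.3 and 30.7 CPM in B cells and 23.3, 16.7 and 19 CPM in plasma cells.

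A list of 20 dissociation and early response genes (Fos, Jun, Dusp1 and others, all detected) was summed beside these levels, because the nodes were digested. Its total was 27824 and 31062 CPM in mast cells or basophils of the tumour libraries and 18150.5, 16308 and 12147 CPM in neutrophils. Innate-like lymphocytes held 13374, 11800.4 and 12494 CPM, and migratory DCs 5645, 6177 and 6506 CPM. NK cells, among the first 4 classes for Nfkbiz and Tnfaip3, held 8659.6, 7816 and 9011 CPM of the list. Mast cells or basophils, neutrophils and innate-like lymphocytes were thus high both for inhibitors and for this list, whereas migratory DCs and NK cells were not high for the list, and its part in these levels was not tested.

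Birc3, which encodes the ubiquitin ligase cIAP2, and Traf1, a signalling adaptor of the TNF receptor family, are both products of known target genes of the pathway. Birc3 was 709, 813 and 479 CPM in neutrophils and 687, 562 and 491 CPM in migratory DCs, 2 ranges that overlapped. Among depleted cells migratory DCs led by median, with 665, 545 and 517 CPM, although the 21 lymphatic endothelial cells of the naive library were higher, at 842 CPM. Traf1 was sharper: migratory DCs held 549, 624 and 690.4 CPM and cDC2, the next class, 288, 289.9 and 301 CPM. The depleted migratory DCs held 560.1, 659.9 and 665 CPM of Traf1, against 134, 148 and 105 CPM in regulatory T cells, the class that followed. Plasma cells had the lowest median of all 9 genes in the depleted fraction, for example 8.31, 3.77 and 6.86 CPM of Traf1. CPM is scaled to all UMIs of a class, immunoglobulin included, and the part of this in the low plasma cell levels was not tested.

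**Figure D3:**
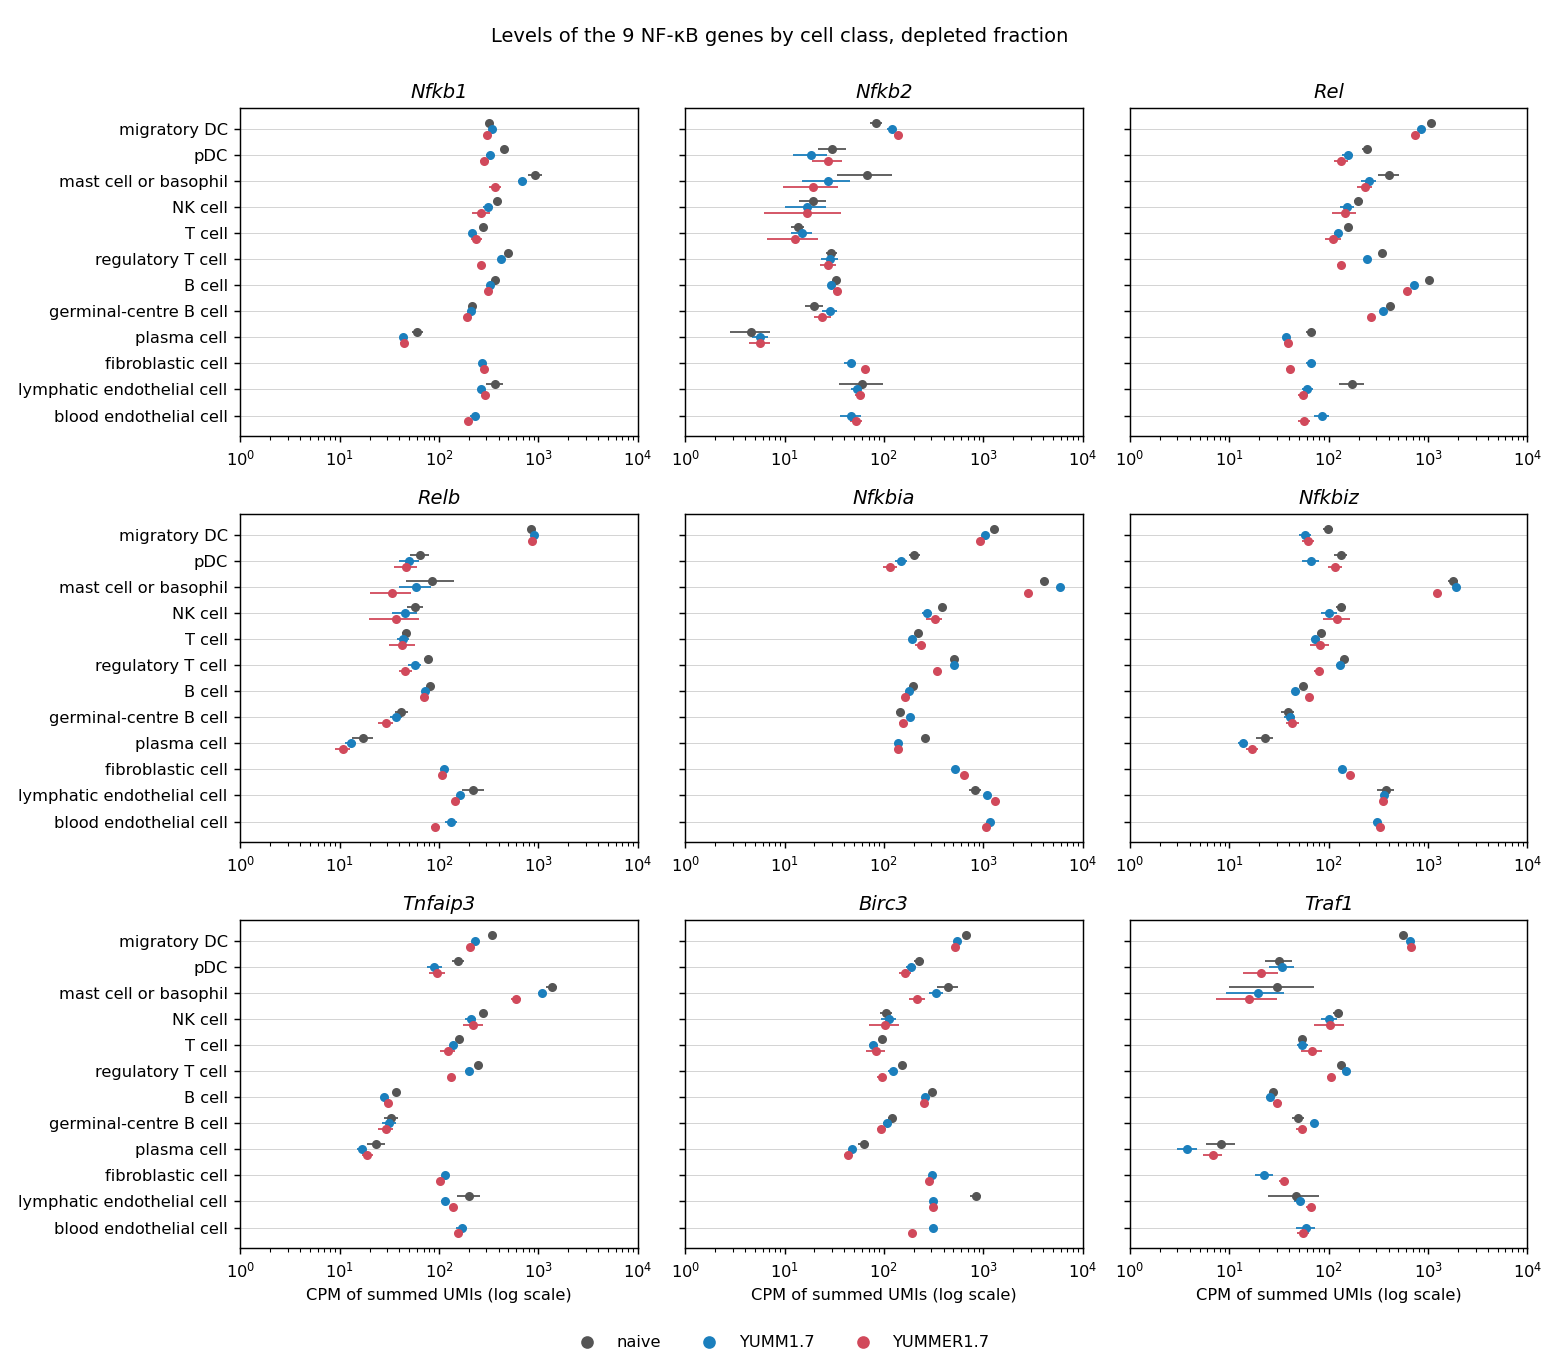
CPM of each of the 9 genes (x axis, log scale) in the 12 named classes of the depleted fraction, with 1 point per library and bars for the exact Poisson 95% interval. By median, migratory DCs lead for Relb, Nfkb2, Birc3 and Traf1, with naive lymphatic endothelium above them for Birc3, and the medians of plasma cells are the lowest in all 9 panels. CPM is scaled to all UMIs of a class, immunoglobulin included.

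Classes were not uniform. The lymphatic endothelium of the depleted fraction fell into cluster 20, led by Ccl20 and Cxcl9, and cluster 19, led by Stab2 and Mmrn1. Birc3 was 605 and 513 CPM in cluster 20 and 138 and 125 CPM in cluster 19, in the tumour libraries. Tnfaip3 was 255 and 220.3 CPM in the former and 35 and 60 CPM in the latter. For both genes the lower library of cluster 20 lay above the higher one of cluster 19. Relb showed the same order, with 254 and 197 CPM against 112 and 93.7 CPM. The clusters held 68 and 84 and 146 and 129 cells in these libraries.

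Fibroblastic cells divided likewise. In cluster 23, which expressed Ccl19, a chemokine of reticular cells, Birc3 was 393 and 328 CPM in the tumour libraries. In cluster 17, led by Mfap5 and Pi16, it was 96.2 and 89.7 CPM. Relb was 141 and 122 CPM in the former and 41.6 and 50.2 CPM in the latter, and Tnfaip3 143 and 117 CPM against 52.4 and 47 CPM. Nfkb1 did not separate the clusters, with 263 and 282 against 286 and 281 CPM.

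B cells of the depleted fraction differed by cluster in Rel. Cluster 4, led by early response genes such as Nr4a1 and Junb, which are on the dissociation list, held 1482, 1289 and 1244 CPM of Rel. Cluster 5, led by Cd86, held 1241, 1192 and 1004 CPM, and cluster 0, led by Siglecg and Tnfrsf13c, 569, 408 and 335 CPM. Nfkb2 showed no such order in clusters 4, 5 and 0, at 33.9, 30.9 and 39.1, 37.6, 29 and 29.9 and 31.1, 30.7 and 29.7 CPM.

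Between arms, the 9 genes were more often lower than higher in the tumour libraries. Over the named classes of the enriched fraction, 27 of 213 gene and class pairs (12.7%) were at least 1.5-fold below naive, against 9.25% of the pairs of all genes, and 1 was above, against 6.08%. For the enriched fraction 7 of 105 pairs (6.67%) were lower in YUMM1.7, against a background of 7.47%, and 20 of 108 (18.5%) in YUMMER1.7, against 11%. The YUMM1.7 share is thus not above the background, although 87 of the 105 pairs lay below naive, against 52.33% of all pairs. The background takes in every gene with at least 50 UMIs in a comparison and was not matched to the levels of the members. In the depleted fraction 39 of 173 pairs (22.5%) were lower and 2 higher, against 9.49% and 8.19% of the pairs of all genes. YUMM1.7 gave 13 of 87 (14.9%) there, against 6.94%, and YUMMER1.7 gave 26 of 86 (30.2%), against 12.1%. With a fold of 2 in place of 1.5, 4 of 213 pairs of the enriched fraction (1.88%) were lower, against 2.64% of the pairs of all genes, and 9 of 173 of the depleted fraction (5.2%), against 3.16%. The enriched share was thus not above this unmatched background at this fold.

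The members did not contribute alike. Tnfaip3 lay below naive in 22 of 23 comparisons of the enriched and all 20 of the depleted fraction, and was past the fold in 5 and 6 of them. Rel was below naive in 23 of 24 and in all 20, and past the fold in 3 and 11. Birc3 was below naive in 23 of 24 and 19 of 20 comparisons. Traf1, by contrast, was below naive in 12 of 24 and 7 of 18, so that its sign was divided. Over all genes between 51.74% and 55.55% of pairs lay below naive. The comparisons within a fraction share a naive library and are not independent.

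Among the DCs of the enriched fraction, cDC2 had the most members past the fold, and the inhibitors were foremost. Tnfaip3 was 282, 131 and 113 CPM over 1110, 1267 and 711 cells. Both tumour libraries were below the naive one, by 2.15-fold and 2.49-fold, with log2 ratios of -1.11 (95% interval -1.18 to -1.03) and -1.32 (95% interval -1.41 to -1.22). Nfkbiz was 369.9, 211 and 185 CPM, with log2 ratios of -0.81 (95% interval -0.87 to -0.74) and -0.998 (95% interval -1.08 to -0.92). Nfkbia was 751, 529 and 483 CPM and past the fold in YUMMER1.7 only, at -0.64 (95% interval -0.69 to -0.59). So was Rel, with a log2 ratio of -0.63 (95% interval -0.67 to -0.59). Nfkb2, Relb and Traf1 were within 1.5-fold of naive, Traf1 at 288, 289.9 and 301 CPM. In all, 2 of 9 members were past the fold downwards in YUMM1.7, against 6.27% of all genes tested, and 4 of 9 in YUMMER1.7, against 8.02%. The median log2 ratio of the 9 genes was -0.31 and -0.58, beside 0.06 and 0.05 for all genes.

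For Tnfaip3 the difference was present in both cDC2 clusters. In cluster 9, led by Ctnnd2, Cd209a and Klri1, Tnfaip3 was 242, 120.4 and 101 CPM, with log2 ratios of -1.01 (95% interval -1.10 to -0.92) and -1.25 (95% interval -1.37 to -1.14). Cluster 5, led by Mmp12, Dcstamp and Lpl, had 368, 207 and 181 CPM of Tnfaip3. Cluster 5 also held less Rel in tumour libraries, 1070.1, 591 and 477 CPM, with log2 ratios of -0.86 (95% interval -0.95 to -0.77) and -1.16 (95% interval -1.28 to -1.05). It made up 310, 140 and 90 cells, so most cDC2 lay in cluster 9, with 800, 1127 and 621. Within cluster 9, 2 and 3 of 9 members were past the fold downwards, against 5.88% and 9.22% of all genes, and within cluster 5, 4 and 7, against 4.56% and 7.0%.

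The share of cells with a UMI gave the same order. After thinning each cell to 2000 UMIs, 31.6%, 18.9% and 16.3% of cDC2 held a Tnfaip3 UMI, and 70.5%, 54.6% and 51.9% before thinning. In germinal-centre B cells, the class with least Tnfaip3 in this fraction, the thinned shares were 3.45%, 4.08% and 7.14%. In cDC1 they were 9.59%, 9.14% and 9.56%, so the cDC2 of all 3 libraries lay above both. The median depths before thinning were 11836, 13219 and 13586 UMIs per cell in cDC2 and 12876, 20006 and 17268 in germinal-centre B cells. The dissociation list summed to 11208, 10565 and 11444 CPM in cDC2, below naive in YUMM1.7 and above it in YUMMER1.7. Such a sum does not show its single genes. The 9 fixed migratory DC markers, all detected, summed to 499, 335 and 304 CPM in cDC2, lower in both tumour libraries. In migratory DCs themselves the sum of these markers was 11411, 10212 and 9498 CPM. The part of neither list in the result was tested.

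**Figure D4:**
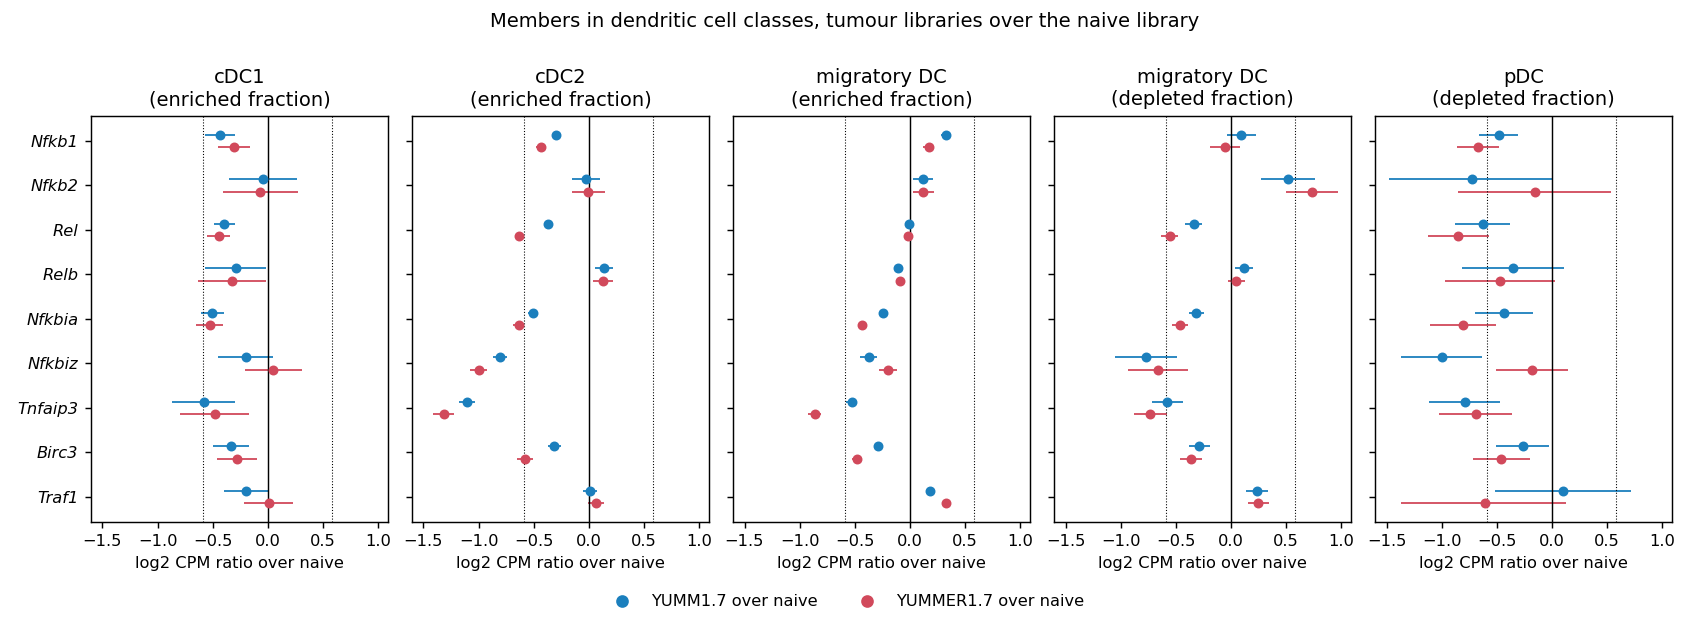
Log2 CPM ratios of the YUMM1.7 (blue) and YUMMER1.7 (red) libraries over the naive library (x axis) for the 9 genes in 5 DC classes, with 95% intervals for counting error as bars and dotted lines at 1.5-fold. Tnfaip3 lies below 0 in all 5 panels, and in cDC2 both points lie beyond the dotted line.

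In migratory DCs of the enriched fraction the inhibitors were lower with tumours, and Traf1, Nfkb1 and Nfkb2 were slightly higher. The levels of Nfkb1 and Nfkb2 are given above. Tnfaip3 was 490.2, 339.8 and 269 CPM over 2238, 1176 and 1030 cells, past the fold in YUMMER1.7 with -0.86 (95% interval -0.92 to -0.81). Nfkbia was 1574, 1326 and 1164 CPM and Birc3 687, 562 and 491 CPM, both stepping down from naive to YUMMER1.7 without reaching 1.5-fold. Traf1 was 549, 624 and 690.4 CPM, with 0.18 (95% interval 0.14 to 0.23) and 0.33 (95% interval 0.29 to 0.37). Rel was level, as the values above show, with log2 ratios of -0.01 (95% interval -0.04 to 0.02) and -0.02 (95% interval -0.05 to 0.01). No member was past the fold downwards in YUMM1.7, against 5.46% of all genes, and 1 of 9 was in YUMMER1.7, against 10.4%.

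The largest cluster of migratory DCs was not the same in the 3 arms, and the inhibitors differed between clusters. Cluster 10, led by St18 and Clu, had 1155, 384 and 239 cells, and cluster 4, led by Il12b, Ccl17 and Ccl22, 672, 478 and 530. Within cluster 4, Nfkbia was 2557, 1652 and 1254 CPM, with log2 ratios of -0.63 (95% interval -0.66 to -0.60) and -1.03 (95% interval -1.06 to -0.99). Tnfaip3 was 811, 434 and 303 CPM there, with -0.90 (95% interval -0.97 to -0.84) and -1.42 (95% interval -1.49 to -1.35). Nfkbiz was 338, 181 and 179 CPM. Those 3 inhibitors, and no other member, were past the fold downwards in cluster 4 in both tumour libraries, against 6.72% and 9.6% of all genes. In cluster 10 Nfkbia was 962, 789 and 870.3 CPM and Tnfaip3 298, 226 and 223 CPM, so both were lower with tumours by less than 1.5-fold. No member was past the fold in cluster 10, against 4.46% and 7.53% of all genes downwards. Cluster 23, led by Dkk2 and Tmem132c, had more Nfkbia with tumours, at 1155, 1453 and 1292 CPM, but less Tnfaip3 in YUMMER1.7, at 311, 303 and 199.8 CPM. Relb hardly varied by arm in cluster 4, at 887, 876 and 878 CPM. The difference between clusters 4 and 10 was not tested.

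**Figure D5:**
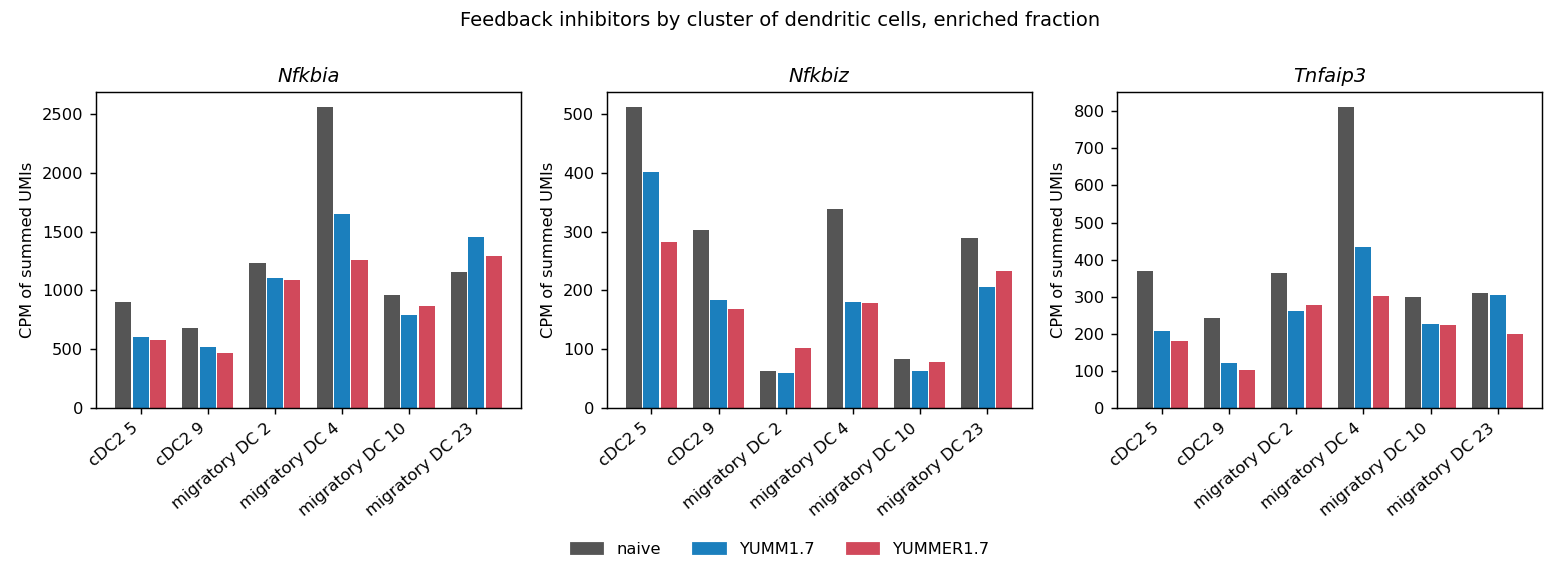
CPM (y axis) of Nfkbia, Nfkbiz and Tnfaip3 in the 2 cDC2 clusters and in the 4 migratory DC clusters of ordinary depth of the enriched fraction, with 1 bar per library. In migratory DC cluster 4 the naive bar is the highest of the 3 for each gene, and in cluster 23 it is the lowest for Nfkbia.

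The single migratory DC cluster of the depleted fraction gave a partly different picture, over 295, 298 and 276 cells. Tnfaip3 was 344, 230.5 and 207 CPM and Nfkbiz 98.6, 57.8 and 62.4 CPM, both lower with tumours. The Nfkbiz ratio of YUMMER1.7 rests on the sum over cells, and was 0.010 on the log2 scale for the mean of the CPM of each cell. Rel was 1078, 853 and 733 CPM, with -0.34 (95% interval -0.41 to -0.26) and -0.56 (95% interval -0.64 to -0.48). Nfkb2 was higher with tumours, at 83.8, 120.0 and 139 CPM, and past the fold in YUMMER1.7 with 0.73 (95% interval 0.50 to 0.97). It was the only member past the fold upwards there, against 6.61% of all genes. Downwards, 1 of 9 members was past the fold in YUMM1.7, against 7.11%, and 2 of 9 in YUMMER1.7, against 8.23%.

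In cDC1 no member was past the fold in either tumour library, against 5.54% and 8.02% of all genes downwards. Tnfaip3 was 62.8, 41.9 and 45 CPM and Nfkbia 419.8, 296 and 291 CPM over 232, 194 and 145 cells, so the naive value was the highest of the 3 for both. The log2 ratio of Nfkbia in YUMMER1.7 was -0.53 (95% interval -0.65 to -0.41). That of Tnfaip3 was -0.48 (95% interval -0.79 to -0.17), and its difference from cDC2 was not tested. The dissociation list summed to 10608.5, 9094 and 9159 CPM in cDC1, lower in both tumour libraries, and its part was not tested.

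Plasmacytoid DCs (pDCs), the interferon-producing DC lineage, were measured in the depleted fraction over 149, 163 and 117 cells. Rel was 239.9, 155 and 133 CPM, past the fold in both tumour libraries with -0.63 (95% interval -0.88 to -0.38) and -0.85 (95% interval -1.13 to -0.58). Tnfaip3 was 155, 89.9 and 96.2 CPM, with -0.79 (95% interval -1.12 to -0.47) and -0.69 (95% interval -1.03 to -0.36). Nfkbiz was 132, 66.1 and 116 CPM, so that YUMM1.7 alone was low. In total 4 of 9 members were past the fold downwards in YUMM1.7, against 6.36% of all genes, and 5 of 9 in YUMMER1.7, against 8.61%. The intervals of Nfkb2 in YUMM1.7 and Traf1 in YUMMER1.7 included 0. The dissociation list summed to 6075, 4133 and 5524 CPM in pDCs, lower in both tumour libraries, and its part was not tested.

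Among other myeloid cells, neutrophils had 5 of 9 members past the fold downwards in YUMMER1.7, against 16.5% of all genes, and none in YUMM1.7, against 10.6%. Nfkb1 was 827, 694 and 460.3 CPM and Tnfaip3 576, 560.5 and 299 CPM. The precursors of cluster 22, led by Camp, Ngp and Ltf, made up 47, 29 and 117 cells beside 727, 387 and 528 cells in cluster 3, led by Acod1, Clec4d and Cxcr2. Within cluster 3 Tnfaip3 was 642, 681 and 468 CPM and Nfkb1 858, 802 and 621 CPM, all within 1.5-fold. No member was past the fold downwards in cluster 3 alone, against 12.4% of all genes in YUMMER1.7. Nfkbia in cluster 3 was 1692, 2171 and 2695 CPM, higher with tumours, with 0.67 (95% interval 0.61 to 0.73) in YUMMER1.7. Traf1 was 60.2, 56.3 and 119 CPM there, high in YUMMER1.7 alone, and these 2 members were past the fold upwards, against 10.4% of all genes. The dissociation list in neutrophils was 18150.5, 16308 and 12147 CPM, lowest in YUMMER1.7. The migratory DC markers, all 9 detected, summed to 354, 263 and 94.6 CPM in neutrophils and were also lowest in YUMMER1.7, and the part of neither list was tested.

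Monocytes had Tnfaip3 alone past the fold downwards in YUMMER1.7, 1 of 9 against 9.04% of all genes, at 133, 110.1 and 87.4 CPM over 758, 1720 and 1644 cells. In the non-classical monocytes of cluster 15 Tnfaip3 was 116, 114 and 109 CPM, and in the classical monocytes of cluster 18, led by Vcan and F13a1, it was 139, 90.7 and 71.6 CPM. Rel was 1395, 957 and 1002 CPM in the former and 700.5, 577 and 492 CPM in the latter. Macrophages had no member past the fold, against 5.75% and 7.63% of all genes downwards. Their median depth was 1544, 11786 and 16380.5 UMIs per cell, and shallow cells of cluster 16, led by Marco and Cd209b, made up 708, 176 and 85 of the 1004, 511 and 432 cells. Mast cells or basophils of the depleted fraction had 4 of the 6 members tested past the fold downwards in YUMMER1.7, against 21.9%, and 1 of 6 in YUMM1.7, against 16.2%. Tnfaip3 was 1358, 1078 and 594 CPM there, over 25, 113 and 109 cells. Their dissociation list was 29108, 28890.3 and 24246 CPM, lowest in YUMMER1.7, and its part was not tested.

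In lymphocytes the largest count lay in regulatory T cells. Within those of the depleted fraction, 6 of 9 members were past the fold downwards in YUMMER1.7, against a high background of 23.2% of all genes, and none in YUMM1.7, against 8.86%. Rel was 343, 240.2 and 133 CPM and Nfkb1 500.3, 417 and 268 CPM. Cycling cells of cluster 13 made up 199, 91 and 132 and the other cells of cluster 3 439, 155 and 34 of the class, so YUMMER1.7 was held mostly by cycling cells, and its median depth was highest, at 7706, 8429 and 20571 UMIs per cell. Within cluster 3 of the depleted fraction Rel was 443, 441 and 322 CPM and within cluster 13 279.5, 152 and 116 CPM. In the enriched fraction Rel, Nfkb1 and Birc3 were past the fold in YUMMER1.7, 3 of 9 against 19.8%, with Rel at 529, 471 and 276 CPM. None was in YUMM1.7, against 10.7%. The migratory DC markers summed to 225, 194 and 148 CPM in depleted and 423, 298 and 264 CPM in enriched regulatory T cells, lowest in YUMMER1.7 in each, and their part was not tested.

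Other T cells and NK cells had few differences. In T cells of the enriched fraction Nfkb1 and Nfkb2 were past the fold downwards in YUMMER1.7, 2 of 9 against 14.5% of all genes, with Nfkb1 at 412, 284 and 233 CPM. In T cells of the depleted fraction none was, against 2.71% and 12.3%, with Nfkb1 at 277, 214 and 238 CPM. Depleted NK cells had Relb alone past the fold in YUMMER1.7, 1 of 8 tested against 15.8%, and Relb rests there on 291, 139 and 37 cells. Innate-like lymphocytes and NK cells of the enriched fraction had no member past the fold in either tumour library, against backgrounds downwards of 6.03% to 9.66% and 4.58% to 8.25%. Nfkb1 in innate-like lymphocytes, at 2745, 1837 and 1839 CPM, was lower in both tumour libraries and fell just short of 1.5-fold.

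B cells of the depleted fraction had Rel alone past the fold in YUMMER1.7, 1 of 9 against 3.79% of all genes. The level of Rel was 1031, 714 and 606 CPM over 8110, 4593 and 2536 cells, with -0.77 (95% interval -0.80 to -0.73). The cell counts of the clusters also differed between arms. Clusters 4 and 5, high in Rel, held 2351, 769 and 351 and 1822, 369 and 133 cells, and cluster 1, led by Cd22 and Cnr2, 7, 352 and 940. The part of this mix in the Rel difference was not tested. Within cluster 4 the log2 ratio of Rel in YUMMER1.7 was -0.25 (95% interval -0.32 to -0.19) and within cluster 0 -0.76 (95% interval -0.87 to -0.66). The dissociation list summed to 6155, 4647 and 5369 CPM in depleted B cells, lower in both tumour libraries, and its part was not tested. In B cells of the enriched fraction Rel was 1099, 833 and 872 CPM, within 1.5-fold, and Traf1 was 38.9, 78.9 and 44.9 CPM, higher in YUMM1.7 alone with 1.02 (95% interval 0.68 to 1.36). That was 1 of 9 members upwards, against 3.51% of all genes.

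Plasma cells had 4 of 9 members past the fold downwards in YUMM1.7, against 5.57% of all genes, and 3 of 9 in YUMMER1.7, against 6.92%. Nfkbia was 259.6, 139 and 137 CPM, with -0.90 (95% interval -1.003 to -0.80) and -0.92 (95% interval -1.03 to -0.81). Rel, at 66, 36.9 and 39.2 CPM, was past the fold in both. After thinning to 2000 UMIs per cell the log2 ratio of Rel in YUMMER1.7 was 0.055 and that of Traf1 in YUMM1.7 was 0.85. Thinned ratios were taken without the minimum of 50 UMIs, and the part of low counts in these changes was not tested. Cycling cells of cluster 15 held 59, 418 and 204 of the plasma cells and cluster 10 150, 367 and 167. Within cluster 10 Nfkbia was 302, 153 and 163 CPM. Germinal-centre B cells of the enriched fraction also had 5 of 6 tested members past the fold in YUMM1.7, against 18.4%, and 4 of 9 in YUMMER1.7, against 20.2%, but rest on 29, 50 and 60 cells. Thinned, the log2 ratios of Nfkb1 and Birc3 there turned to 0.073 and 0.24 in YUMM1.7 and that of Birc3 to 1.64 in YUMMER1.7, and with no doublets removed that of Relb was 0.030 in YUMMER1.7. In the 234, 203 and 133 germinal-centre B cells of the depleted fraction none was past the fold in YUMM1.7, against 4.81%, and Rel alone in YUMMER1.7, against 7.81%.

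Stroma could be set against naive for lymphatic endothelium only, with 21, 214 and 213 cells. Birc3 was 842, 309.6 and 314 CPM and Rel 171, 60.8 and 55.4 CPM, both past the fold downwards in the tumour libraries. Nfkbia was 827, 1096 and 1307 CPM and past the fold upwards in YUMMER1.7, with 0.66 (95% interval 0.47 to 0.85). In each tumour library 3 of 9 members were past the fold downwards, against 18.0% and 21.7% of all genes. Those naive cells came mostly from cluster 20, with 13, 68 and 84 cells beside 8, 146 and 129 in cluster 19. Cluster 20 had more Birc3 than cluster 19 in the tumour libraries, at values given above that were below the naive class level. The part of the cluster mix in the difference was not tested. Between the tumour libraries, blood endothelium had less Birc3 in YUMMER1.7, at 312 and 191 CPM for YUMM1.7 and YUMMER1.7. That was 1 of 9 members downwards, against 7.2% of all genes. Fibroblastic cells had less Rel in YUMMER1.7 than in YUMM1.7, with the values given above, and more Traf1, at 22.3 and 35.2 CPM. The backgrounds for these single calls were 8.92% downwards and 3.97% upwards.

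YUMMER1.7 was also set against YUMM1.7 directly. In the enriched fraction 10 of 114 pairs were past the fold downwards and 3 upwards, against 5.71% and 4.97% of all pairs. For the depleted libraries 11 of 104 pairs were past it downwards and 3 upwards, against 6.35% and 3.91%. In cDC1, cDC2 and the migratory DCs of both fractions no member was past the fold in this comparison, against 4.04%, 2.21%, 5.1% and 4.51% of all genes downwards. In pDCs, by contrast, Nfkbiz was past the fold upwards and Traf1 downwards, each 1 of 9 members, against 3.27% and 4.65%, and the interval of Traf1 included 0.

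Of 70 other genes of the pathway, listed by role, the counts past the fold in cDC2 differed by role and by tumour, with no test of the difference. Of the ligands, 1 of 5 tested was upwards in YUMM1.7 and 3 of 4 in YUMMER1.7, with none downwards. Of the receptors, 2 of 11 tested were downwards and none upwards in YUMM1.7, and 2 of 9 were upwards and 1 downwards in YUMMER1.7. All 17 adaptors and kinases were tested in cDC2, and 1 was past the fold upwards and none downwards in YUMM1.7, while 3 were upwards and none downwards in YUMMER1.7. Of 14 other factors and inhibitors, 2 were downwards in YUMM1.7 and 1 in YUMMER1.7, and none upwards. Of the 18 targets tested, 2 were upwards and 7 downwards in YUMM1.7, and 5 upwards and 3 downwards in YUMMER1.7. Over all genes 6.43% were upwards and 6.27% downwards in YUMM1.7, and 11.1% and 8.02% in YUMMER1.7. Tnip3, which encodes an A20-binding inhibitor, was 119, 31 and 15.1 CPM, with log2 ratios of -1.94 (95% interval -2.08 to -1.79) and -2.97 (95% interval -3.22 to -2.73). The adhesion molecule Icam1 was 144, 93.1 and 92.4 CPM. In the other direction stood the chemokine Ccl3, at 37.2, 93.6 and 125 CPM, and the ligand Ltb, at 123, 261 and 287 CPM, with the log2 ratio of Ltb in YUMMER1.7 at 1.22 (95% interval 1.13 to 1.31).

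In enriched migratory DCs 1 of 5 ligands tested was upwards and 1 downwards in YUMM1.7, and 2 upwards and 1 downwards in YUMMER1.7, while 1 of 7 receptors was upwards in each. None of 17 adaptors and kinases was past the fold in either tumour library, and of 14 other factors and inhibitors 1 was, upwards in YUMMER1.7. Of 19 targets, 3 were upwards and 2 downwards in YUMM1.7, and 5 upwards and 3 downwards in YUMMER1.7, against backgrounds of 6.69% and 8.18% upwards and 5.46% and 10.4% downwards. The cytokine genes Il12b and Il6 were 99.4, 173 and 368 and 9.35, 18.4 and 45.9 CPM, both higher with tumours, with a log2 ratio of Il12b in YUMMER1.7 of 1.89 (95% interval 1.82 to 1.96). The neutrophil-attracting chemokine Cxcl1 was 218, 100.4 and 72.4 CPM, lower with tumours. In the depleted migratory DCs Il6 was 15.9, 5.4 and 8.68 CPM, lower with tumours, so the fractions differed in direction for this gene, a difference that was not tested. In pDCs the chemokine Ccl4 was 2887, 614 and 725 CPM, with -2.23 (95% interval -2.34 to -2.13) and -1.99 (95% interval -2.10 to -1.89). In cDC1 the stress gene Gadd45b was 104, 38.6 and 40.6 CPM, lower in both tumour libraries.

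The genes whose levels most resembled those of the members were sought over sums of class or unnamed cluster and library, 45 for enriched and 39 for depleted cells. The measure was Pearson's r of log2(CPM + 1), and sums of 1 library share its depth and handling. For Relb the highest were Slco5a1 (r = 0.877), Tmem123 (r = 0.856) and Fscn1 (r = 0.837) in the enriched fraction. Fscn1, the gene of an actin-bundling protein, and Tmem123 are among the fixed migratory DC markers. Nfkbiz was most like Junb (r = 0.934), an early response gene that is on the dissociation list, and Nfkbia like Ppp1r15a (r = 0.854). In the depleted fraction Nfkbia was most like the chemokine gene Cxcl2 (r = 0.934) and Birc3 second to Rab5b like Nfkbie (r = 0.872), another inhibitor gene of the pathway. Among the members themselves, Nfkb2 and Relb had r = 0.803 in enriched and 0.904 in depleted sums, and Nfkbiz and Tnfaip3 0.836 and 0.834. For Rel and Nfkbia r was 0.171 in enriched and 0.094 in depleted sums.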

How the data were processed

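The authors deposited UMI counts as 1 matrix of genes by cell barcodes per library. The submitters' processing notes name Cell Ranger 8.0.1 and the build mm10. Headers of the matrices carry version 8.0.1 in the enriched and 7.0.0 in the depleted fraction, so the fractions were kept apart.

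Cells with at least 500 UMIs, 300 genes and at most 10% mitochondrial UMIs were kept. Scrublet's automatic thresholds marked 0% to 2.47% of cells, so cells above the 95th percentile of its score were removed per library. Clustering used scanpy 1.11.5 (2000 variable genes, 30 principal components, 15 neighbours, Leiden resolution 1) without the 9 genes and without ribosomal, mitochondrial, sex-linked, haemoglobin, T cell receptor and immunoglobulin genes, and without correction for free RNA or between libraries. Each cluster took the class with most fixed markers among its 10 leading genes. Clusters 7, 24 and 25 of the enriched and 14 and 21 of the depleted fraction, which had leading genes of several classes, shallow cells or too few markers, stayed unnamed. Monocyte types, and neutrophils and their precursors, were merged. This naming rule and the doublet rule were settled with the data in view.

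UMIs were summed per class and library. Intervals are exact Poisson for levels, conditional binomial for ratios and Clopper-Pearson for shares, and cover counting error only. The code for ratios and calls was tested on simulated counts. No test was made, since each group has 1 library. The 9 genes, the gene lists and the rules were chosen with earlier results of these data known. All 9 genes are described. Other pathway genes were eligible where both tumour libraries were past the fold on the same side of naive, up to 3 per direction and class, and the text gives some of these. Genes of like pattern were taken as the 3 with the highest r among genes with at least 50 CPM in some sum. Thinning to 2000 UMIs per cell left out shallower cells. Alternatives covered the cell filter, doublets, thinning, scaling, averaging, clustering, the UMI minimum and the fold.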

Additional observations from a re-analysis of the deposited data

Results flagged for a closer look

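In each case below both tumour libraries lay above naive in 1 class and below it in another, with the intervals of all 4 ratios clear of 0. Both ratios of a class share a naive library, and the difference between the classes was not tested. Where several classes of a gene met this, the pair with the most opposed ratios is given, so the sizes are those of selected extremes. For each gene the log2 ratios of YUMM1.7 and YUMMER1.7 over naive are given first, and then the difference between the classes in YUMMER1.7.

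Nfkbiz in the enriched fraction was 0.14 and 0.12 in monocytes and -0.81 and -0.998 in cDC2, a difference of 1.12. Relb was 0.14 and 0.13 in cDC2 and -0.29 and -0.32 in cDC1, a difference of 0.453. Nfkb2 was 0.12 and 0.12 in migratory DCs and -0.45 and -0.58 in B cells of the enriched fraction, a difference of 0.70. These 3 pairs of classes had at least 145 cells in each library.

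Nfkb1 was 0.33 and 0.17 in migratory DCs and -0.59 and -1.01 in germinal-centre B cells of the enriched fraction, a difference of 1.18. With cells thinned to 2000 UMIs the YUMM1.7 ratio in germinal-centre B cells turned to 0.073, a value taken without the minimum of 50 UMIs. Nfkbia was 0.45 and 0.23 in regulatory T cells and -1.32 and -0.54 in the same germinal-centre B cells, a difference of 0.776. The naive library held 29 germinal-centre B cells. In the depleted fraction Nfkbia was 0.40 and 0.66 in lymphatic endothelium, with 21 naive cells, and -0.90 and -0.92 in plasma cells, a difference of 1.58.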

How the results depend on the processing

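No paired analysis was possible because each group has 1 library. The class with the highest level was unchanged for 9 of 9 genes in both fractions when the CPM of each cell was averaged. Of 69 calls over naive, alternatives gave 662 values, of which 568 stayed within the interval, 87 moved beyond it and 7 changed sign. With a fold of 2, the 27 lower pairs of the enriched fraction became 4 and the 39 of the depleted fraction 9. The 10 and 11 lower pairs of YUMMER1.7 over YUMM1.7 then became 0 and 1, and the 3 higher pairs of each fraction 0. The 2 higher pairs over naive of the depleted fraction became 0 as well.

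With the largest cluster of each class only, the 39 lower pairs of the depleted fraction became 25, over fewer pairs tested (139 in place of 173), the higher pairs over naive became 3 (enriched) and 1 (depleted), and the lower pairs of YUMMER1.7 over YUMM1.7 became 6 in the enriched fraction. The single higher pair over naive of the enriched fraction became 9 with no doublets removed and 7 with the mean of the CPM of each cell. Cells thinned to 2000 UMIs gave 6 lower pairs of YUMMER1.7 over YUMM1.7 in the enriched fraction, over 92 pairs tested in place of 114, and the mean per cell gave 5. For higher pairs of YUMMER1.7 over YUMM1.7, the stricter cell filter gave 5 and no doublets removed gave 1 in the enriched fraction, while resolution 2 gave 5 and the mean per cell 6 in the depleted fraction. The 2 higher pairs over naive of the depleted fraction became 1 under the stricter filter, with no doublets removed and with thinning. The share of cells with a UMI was smaller in both tumour libraries for 56 of 90 depleted gene and class pairs after thinning and for 30 without it. This count was not made over all genes, so it has no background, and both tumour libraries share the naive one.

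Signs changed in 3 classes. After thinning, the log2 ratio over naive in enriched germinal-centre B cells was 0.073 for Nfkb1 and 0.24 for Birc3 in YUMM1.7, and 1.64 for Birc3 in YUMMER1.7. In plasma cells it was 0.85 for Traf1 in YUMM1.7 and 0.055 for Rel in YUMMER1.7. With no doublets removed, Relb in germinal-centre B cells gave 0.030 in YUMMER1.7, and with the mean per cell Nfkbiz in depleted migratory DCs gave 0.010. Ratios under the alternatives were taken without the minimum of 50 UMIs, whatever count was left. Beyond what is said of pairs tested, the cause was not tested. Leaving out shallow clusters, an alternative added after the data were seen, kept all 69 calls within their intervals.

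With 1 library per group, spread between mice and libraries is not measured, and intervals cover counting error only. Classes with few cells, such as naive lymphatic endothelium with 21, set the depth of their ratios.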

Other observations

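The clusters that received no class name also held the 9 genes. Unnamed cluster 24 of the enriched fraction, led by cycling genes such as Top2a and Pclaf, had 107 cells in naive nodes, 205 with YUMM1.7 and 166 with YUMMER1.7. Values below keep that order. Tnfaip3 was 179, 65.1 and 87.9 CPM there and Nfkbiz 196, 87.6 and 105 CPM, so naive was highest for both. Relb was 128, 185 and 204 CPM and thus lowest in naive. These 3 genes were chosen after their values were seen.

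Unnamed cluster 7 of the enriched fraction was shallow, with 490, 289 and 230 cells, and was led by Lyz1, Pla2g2d and Tgm1. Nfkb2 and Relb made up 67.9%, 73.4% and 72.9% of its Rel-family UMIs, above every named class, on 361, 305 and 192 such UMIs. Its Rel was 46.5, 42.0 and 35.3 CPM.

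In the depleted fraction, unnamed cluster 14, led by Lyz2, Slc8a1 and Cd300a, had 138, 177 and 102 cells. Its Nfkbia was 781, 451 and 567 CPM, its Tnfaip3 155, 71.8 and 140.0 CPM and its Traf1 109.9, 56.1 and 69.0 CPM, so that YUMM1.7 was lowest for each. These 3 genes were singled out after their values were seen. Unnamed cluster 21 was shallow and held 4, 151 and 1644 cells. Its Nfkbia was 449 CPM in YUMM1.7 and 674 CPM in YUMMER1.7, and its Tnfaip3 71.7 and 127 CPM.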
